A study of Mus musculus with 12 samples.

Results

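The genes described here are the collagen, laminin and integrin genes of the mouse, the scaffold proteins outside the cell and the receptors that hold on to them. All protein-coding genes were taken whose symbol is Col, a number, the letter a and a number, or Lama, Lamb or Lamc with a number, or Itga or Itgb with any further suffix. This gave 86 of the 46517 genes in the count files, of which 21547 are protein-coding. They are 44 collagen chains, 11 laminin chains, 27 integrin chains and 4 genes that carry an integrin name but encode no integrin chain. The study sequenced polyadenylated RNA of the EomesEGFP reporter line of mouse embryonic stem cells (ESCs), C57BL/6 in the labels, which carries EGFP in the *Eomes* locus. Wild type (WT) cells were compared with *Meteor* knockout (KO) cells, from which an enhancer upstream of *Eomes* had been deleted with a Cas9 nickase. Each genotype was sampled as undifferentiated ESCs (day 0) and after 3 days of differentiation (day 3), with 3 libraries in each of the 4 groups. The question was how loss of this enhancer changes the transcriptome before and during mesendoderm formation.

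Day 0 cells were grown on mouse embryonic fibroblast feeders, so RNA of feeder cells can be present in those libraries. Day 3 cells were embryoid bodies grown in hanging drops, a mixture of cell types. KO cells came from picked clones, and the labels do not say whether the 3 KO libraries are from 1 clone. Nothing in the labels says that the 3 libraries of a group are separate cultures, so p-values measure the spread between these libraries, which may be technical. In bulk RNA, fewer cells of a type and less RNA per cell cannot be told apart.

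Laminins are secreted as trimers of 1 alpha, 1 beta and 1 gamma chain and polymerize into the first sheet of a basement membrane, onto which a network of type IV collagen is then laid. Fibrillar collagens such as types I, III and V form the fibres of connective tissue and are typical products of fibroblasts. Integrins are receptors of 1 alpha and 1 beta chain. The alpha chain decides much of what is bound: alpha3, alpha6 and alpha7 bind laminin, alpha5, alpha8 and the alphaV chain bind the RGD motif of fibronectin and vitronectin, and alpha1, alpha2, alpha10 and alpha11 bind collagen. The laminin with the alpha1, beta1 and gamma1 chains is a main product of ESCs and of the early embryo.

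Between 17455927 and 23910943 reads were counted on genes per library, and the 86 genes together took 0.217% to 0.553% of them. Levels are given as CPM, reads scaled to library size by TMM, so 1 CPM is close to 20 reads, and levels of different genes are compared only as RPKM, the same values per kilobase of exon. Reads upstream of *Eomes* followed the labels: *Platr11*, a transcript of that region, had 30 to 112 counts in WT and 0 to 1 in KO libraries at day 0. Pluripotency markers summed to 3720 to 5613 CPM at day 0 and to 946 to 2006 CPM at day 3. Primitive streak and mesoderm markers summed to 912 to 1866 CPM in WT and to 84.8 to 152 CPM in KO libraries at day 3. At day 0 they summed to 183 CPM in WT replicate 3, against 45.3 and 73.3 CPM in the other WT libraries and 52.3 to 68.7 CPM in KO. *T* was at 77.4 CPM in WT day 0 replicate 3, against 4.64 and 6.42 CPM. WT day 3 replicate 3 stood apart from the other WT day 3 libraries. Its endothelial markers summed to 367 CPM against 35.4 and 41.8, of which *Kdr*, a marker of mesoderm and endothelium, gave 258 CPM. Its primitive, visceral and parietal endoderm markers summed to 530.2 CPM against 146 and 211. Its streak and mesoderm markers summed to 912 CPM against 1699 and 1866, and its pluripotency markers to 946 CPM against 1966 and 2006. Of 75 members with reads in WT day 3 replicates 1 and 2, 27 (36.0%) were more than 2 times higher in replicate 3 than in their mean, against 7.81% of all genes tested. None of the 8 streak, 16 endoderm and 8 endothelial markers was at 0 in every library of a day 3 group. Their part in the results of either day was not tested. For members, results that WT day 3 replicate 3 decides are given with and without it, while other genes are given with all libraries only.

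Of the 86 members, 76 had more than 1 CPM in at least 1 library and were tested among 15673 genes with edgeR's quasi-likelihood test and Benjamini-Hochberg adjustment, n = 3 per group, with the replicate number as a block over both days. Adjusted p-values are from this test, in this fit unless another fit or a left-out library is named, and a member is called higher or lower when its adjusted p is below 0.05. At day 0, 13 members were higher and 5 lower in KO than in WT, which is 23.7% of the members tested, against 20.4% of all genes tested. Higher members were 17.1% of those tested against 9.56% of all genes, and lower members 6.58% against 10.9%. The median log2 fold change was 0.29 for the members and -0.01 for all genes. At day 3, 8 members were higher and 30 lower, 50.0% of those tested against 30.9% of all genes. Higher members were 10.5% of those tested against 14.3%, and lower members 39.5% against 16.7%. The median was -0.51 for the members and 0.00 for all genes. Where single genes are described as having groups that did not overlap, this was so for 34.2% of all genes tested at day 0 and 43.8% at day 3. Without WT day 3 replicate 3 the day 3 counts were 9 higher and 21 lower when 22.1% of all genes passed, and without KO day 3 replicate 3 the total was 25 when 18.6% of all genes did. Without WT day 0 replicate 3, the library with the high streak marker sum, the day 0 total was 10, when 11.0% of all genes passed. Of the 5 members lower in KO at day 0, *Itgb8*, *Itga1*, *Itga8* and *Lamb1* had their highest WT level in that library, and *Col6a5* did not. WT and KO libraries of 1 day with the same replicate number deviated together, and with a replicate block set within each day the day 0 counts were 21 higher and 7 lower, 28 in all, when 34.8% of all genes passed. Under every alternative fit, filter and left-out library, 10 of the 18 day 0 calls and 21 of the 38 day 3 calls held. Those of day 0 included *Itgb8*, *Col5a3*, *Lamc1*, *Col6a5*, *Itga5*, *Lama3*, *Itga6*, *Lamb1* and *Itgb5*.

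**Figure D1:**
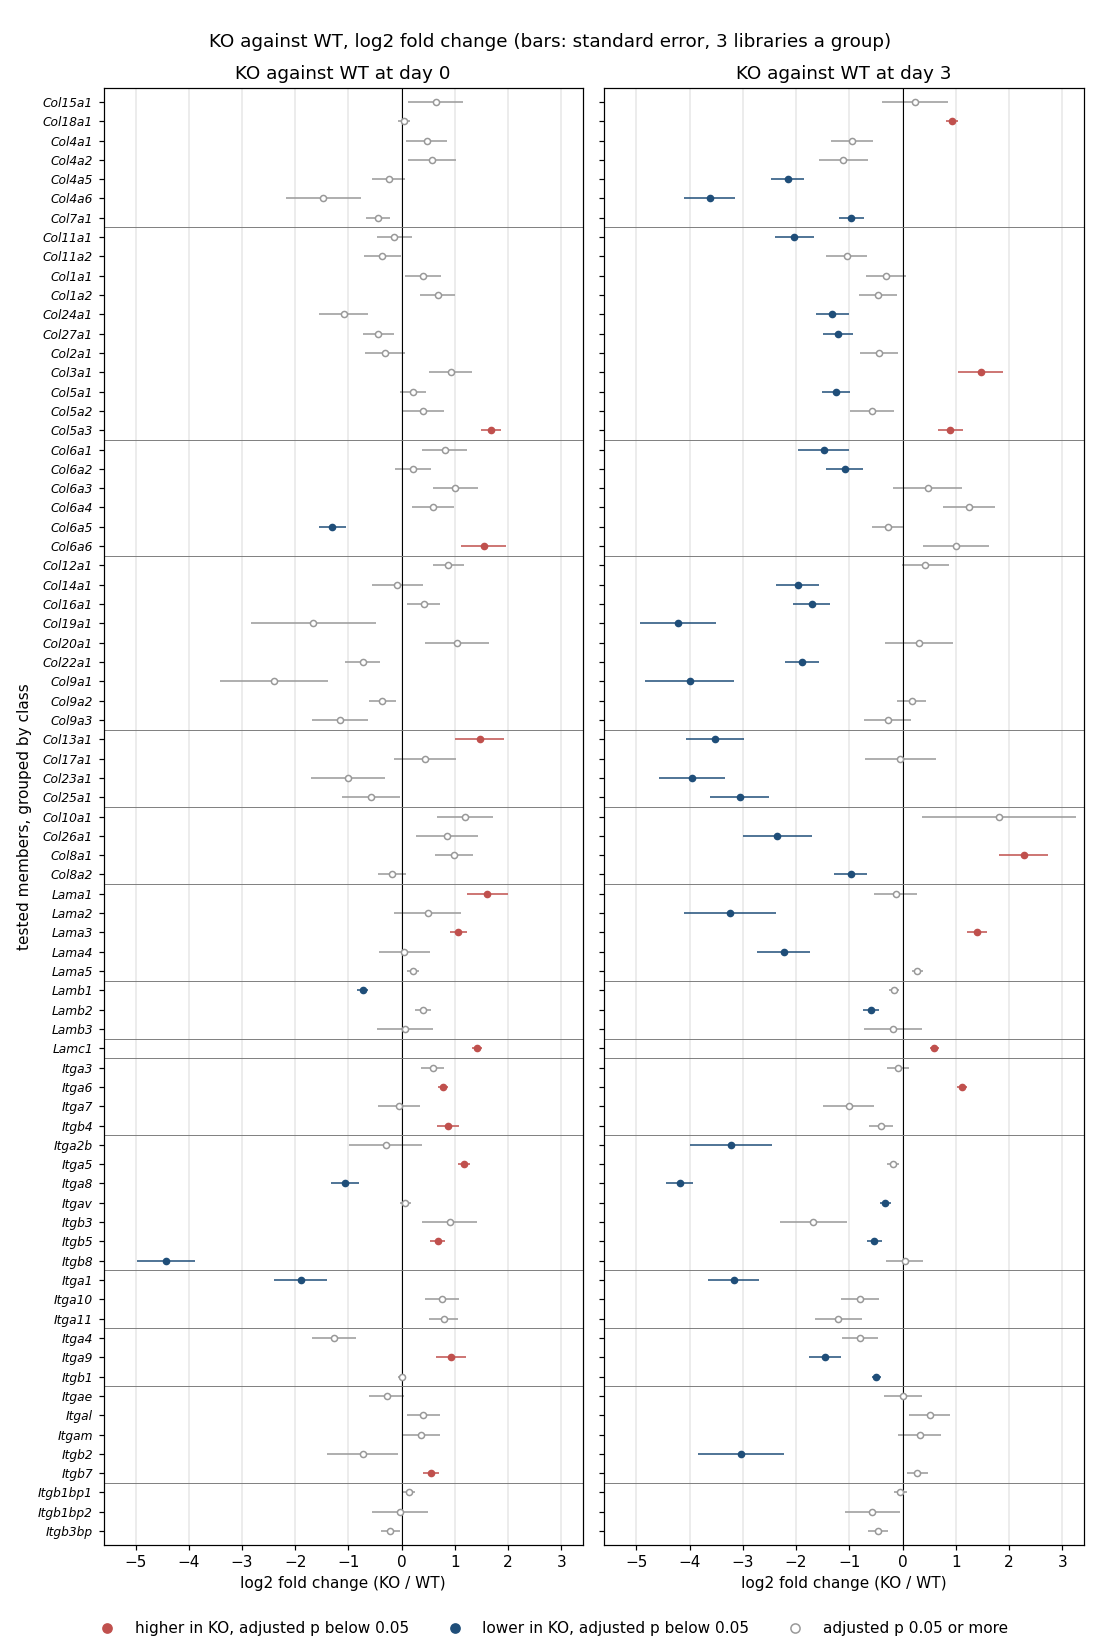
Log2 fold change of KO against WT (horizontal axis) for 75 of the 76 tested members (vertical axis, grouped by class) at day 0 and at day 3, with bars for the standard error from 3 libraries a group. Filled points passed an adjusted p of 0.05: 12 red and 5 blue at day 0, 7 red and 30 blue at day 3.

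Each family held calls at both days. Of all genes tested, 20.4% passed at day 0 (9.56% higher, 10.9% lower) and 30.9% at day 3 (14.3% higher, 16.7% lower). At day 0, 5 of 10 tested laminin chains passed (50.0%, 4 higher, 1 lower), 9 of 22 integrin chains (40.9%, 6 higher, 3 lower) and 4 of 41 collagen chains (9.76%, 3 higher, 1 lower). The collagens thus lay below the share of all genes at day 0. At day 3, 23 of 41 collagen chains passed (4 higher, 19 lower), with 6 of 10 laminin chains (3 higher, 3 lower) and 9 of 22 integrin chains (1 higher, 8 lower). The collagens had a median log2 fold change of 0.22 at day 0 and of -0.96 at day 3. Basement membrane genes, that is the laminins and the basement membrane collagens, gave 4 higher and 1 lower of 17 tested at day 0 (29.4%), and 4 higher and 6 lower at day 3 (58.8%). The fibrillar collagens gave 1 higher and 0 lower of 11 tested at day 0 (9.09%), and 2 higher and 4 lower at day 3 (54.5%).

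The gamma1 chain *Lamc1*, the gamma chain of most laminins, had 541, 701 and 578 CPM in the 3 WT libraries at day 0 and 1434, 1751 and 1694 CPM in the 3 KO libraries. Every KO library lay above every WT library. The log2 fold change was 1.42 ± 0.09 (SE; adjusted p = 3.18e-05). It fell with differentiation but was still higher in KO at day 3. *Lamc1* then had 210.0, 248 and 259 CPM in WT and 289, 379 and 424 CPM in KO libraries, and its log2 fold change was 0.60 ± 0.09 (adjusted p = 0.0011). The KO libraries of day 3 thus lay above the WT libraries of day 3, at levels below those of WT ESCs.

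Among the alpha chains, *Lama1*, the alpha1 chain of the laminin of the early embryo, had 69.6, 112 and 60.3 CPM in WT and 222, 265 and 247 CPM in KO libraries at day 0. The groups were apart by a factor near that of *Lamc1*, with a log2 fold change of 1.61 ± 0.38 (adjusted p = 0.0148). This call was lost without WT day 0 replicate 3 or KO day 0 replicate 1, where the adjusted p reached 0.0652. At day 3 *Lama1* was low in all libraries, with 8.91, 12.9 and 35.3 CPM in WT and 10.1, 23.1 and 17.8 CPM in KO. The 2 groups overlapped and the log2 fold change was -0.13 ± 0.40 (adjusted p = 0.837), but its sign rested on WT day 3 replicate 3, without which the value was 0.69. *Lama3*, the alpha3 chain of skin laminin, was 8.61 ± 0.656 CPM in WT and 18.0 ± 0.909 CPM in KO ESCs (SD, n = 3), a log2 fold change of 1.06 ± 0.16 (adjusted p = 0.0021). In embryoid bodies it was 2.69 ± 0.492 CPM in WT and 7.07 ± 0.539 CPM in KO, a log2 fold change of 1.40 ± 0.18 (adjusted p = 0.000458). *Lama5*, the alpha5 chain of most adult basement membranes, varied little. It had 303, 298 and 325 CPM in WT and 317, 383 and 379.8 CPM in KO libraries at day 0, and 299.6, 385 and 335 CPM and 318, 425 and 506 CPM at day 3. Its groups differed by a log2 fold change of 0.21 ± 0.11 at day 0 (adjusted p = 0.211) and 0.28 ± 0.11 at day 3 (adjusted p = 0.0828), neither of which passed.

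*Lamb1*, the beta1 chain that joins gamma1 in most laminins, had 157, 194 and 217 CPM in WT and 106, 123 and 110.2 CPM in KO libraries at day 0. All KO libraries were below all WT libraries, and the log2 fold change was -0.73 ± 0.10 (adjusted p = 0.0012). At day 3 the values were 165, 167 and 214 CPM in WT and 137, 164 and 188 CPM in KO, which overlapped (-0.16 ± 0.10, adjusted p = 0.233). *Lamb2*, the beta2 chain of muscle and kidney laminins, had 37.8, 30.5 and 30.5 CPM in WT and 41.5, 42.7 and 46.2 CPM in KO libraries at day 0. All KO libraries were above all WT libraries, but the log2 fold change of 0.40 ± 0.15 did not pass (adjusted p = 0.0867), while with the replicate block set within each day it did (adjusted p = 0.0348). At day 3 *Lamb2* was lower in KO, with 21.7, 26.0 and 33.1 CPM in WT and 18.2, 17.5 and 17.6 CPM in KO (-0.59 ± 0.15, adjusted p = 0.0152). That call was lost without WT day 3 replicate 3 or KO day 3 replicate 3, with an adjusted p of up to 0.0894.

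Per length, the chains were present in unequal amounts. In WT ESCs *Lamc1* was at 73.4 ± 10.1 RPKM, *Lama5* at 27.1 ± 1.26, *Lamb1* at 19.1 ± 3.03 and *Lama1* at 8.34 ± 2.86 RPKM (SD, n = 3). In KO ESCs *Lamc1* was at 197 ± 20.4 RPKM, *Lama5* at 31.6 ± 3.28, *Lama1* at 25.3 ± 2.25 and *Lamb1* at 11.4 ± 0.850 RPKM. The distance between the gamma1 and beta1 transcripts was therefore wider in KO than in WT ESCs. At day 3 *Lamc1* and *Lama5* were close in WT, at 28.9 ± 3.13 and 29.9 ± 3.76 RPKM, which is within their spread. *Lamb2* was at 5.42 ± 0.691 RPKM in WT ESCs, and *Lama3*, *Lamb3*, *Lama4* and *Lama2* were each below 1 RPKM there.

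**Figure D2:**
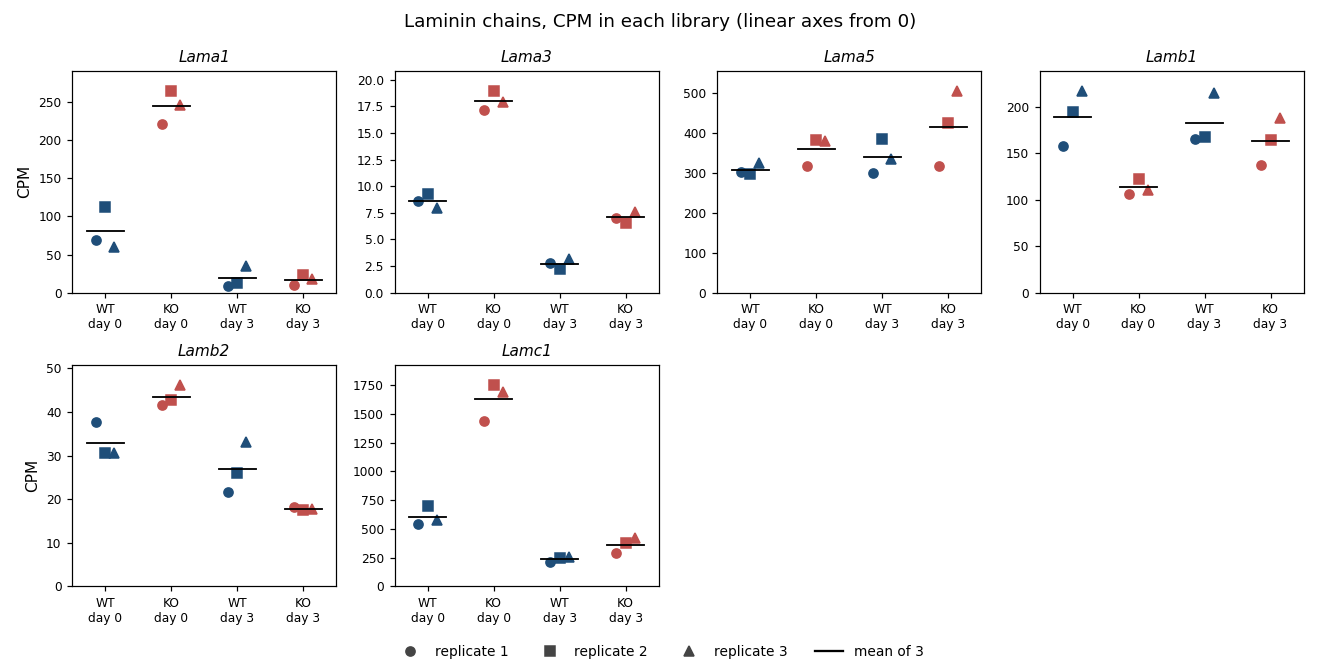
CPM (vertical axis, linear from 0) of 6 laminin chains in each of the 12 libraries, by group (horizontal axis), with a line at the mean of 3. In KO ESCs *Lama1*, *Lama3* and *Lamc1* lie above and *Lamb1* below all WT ESC libraries.

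*Lama2* and *Lama4*, the alpha chains of muscle and of vessel laminins, passed at day 3 but moved with the library that stood apart. *Lama4* had 6.02, 3.71 and 18.2 CPM in WT and 1.65, 1.99 and 1.79 CPM in KO libraries, a log2 fold change of -2.23 ± 0.50 (adjusted p = 0.0089) that became -1.36 without WT day 3 replicate 3 and lost its call without KO day 3 replicate 3 (adjusted p = 0.0613). *Lama2* had 0.560, 0.289 and 2.62 CPM in WT and 0.05, 0.0570 and 0.208 CPM in KO, -3.24 with all libraries (adjusted p = 0.0184) and -1.88 without WT day 3 replicate 3 (adjusted p = 0.121). Its call was also lost without KO day 3 replicate 2 or 3, and over left-out libraries the value reached -3.90. *Lamb3*, the beta3 chain of skin laminin, passed at neither day.

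Type IV collagen is the network collagen of every basement membrane, and its chains lie in head-to-head gene pairs. *Col4a1* and *Col4a2* make the common network. At day 0 *Col4a1* had 44.3, 102 and 64.5 CPM in WT and 62.8, 133 and 96.3 CPM in KO libraries, and *Col4a2* had 18.4, 47.8 and 28.8 CPM in WT and 29.1, 62.9 and 48.7 CPM in KO. The groups overlapped for both chains, and replicate 2 was highest and replicate 1 lowest in both genotypes. Within each replicate number both chains were higher in KO, and the block over both days does not pair libraries within a day. The log2 fold changes were 0.47 ± 0.38 for *Col4a1* and 0.57 ± 0.45 for *Col4a2* (adjusted p = 0.426 and 0.41). At day 3 *Col4a1* had 77.3, 87.7 and 309 CPM in WT and 57.7, 83.0 and 83.7 CPM in KO libraries. *Col4a2* had 30.1, 33.2 and 151 CPM in WT and 22.3, 33.3 and 31.0 CPM in KO libraries. WT day 3 replicate 3 was far above the other WT libraries in both chains, while the other 5 day 3 libraries lay close together. The log2 fold changes of -0.95 ± 0.39 and -1.11 ± 0.46 did not pass (adjusted p = 0.0886 and 0.093). Both were -0.18 without WT day 3 replicate 3, which differed from the other WT day 3 libraries in endothelial, endoderm, streak and pluripotency marker sums.

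*Col4a5* and *Col4a6*, the pair of the X chromosome that adds a further network in kidney and smooth muscle basement membranes, differed by genotype at day 3. *Col4a5* had 9.28, 6.93 and 22.1 CPM in WT and 2.65, 2.10 and 3.21 CPM in KO libraries, a log2 fold change of -2.16 ± 0.31 (adjusted p = 0.000834). *Col4a6* had 5.60, 3.95 and 13.6 CPM in WT and 0.800, 0.455 and 0.458 CPM in KO libraries, a log2 fold change of -3.62 ± 0.48 (adjusted p = 0.000613). No KO library reached the lowest WT library for either gene, and both remained called when any 1 library was left out. The lowest size of the fold under this was -1.72 for *Col4a5*, without WT day 3 replicate 3, and -2.98 for *Col4a6*, without KO day 3 replicate 3. At day 0 neither passed, and *Col4a6* was then near the limit of detection, with 10, 5 and 9 counts in WT and 2, 0 and 7 counts in KO libraries.

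In GENCODE M21, 1309 bases lie between *Col4a6* and *Col4a5*, whose starts face away from each other. The bases just before each start are shown because these neighbours were lower together in KO embryoid bodies. They are from RefSeq on GRCm38.p6, 5′ to 3′ on the strand of the gene, without the bases that any GENCODE M21 exon covers, with matches to CCAAT or GGGCGG on either strand in capitals. *Col4a5* is at chrX:141475169-141475384 on the plus strand and *Col4a6* at chrX:141474077-141474326 on the minus strand.
Col4a5: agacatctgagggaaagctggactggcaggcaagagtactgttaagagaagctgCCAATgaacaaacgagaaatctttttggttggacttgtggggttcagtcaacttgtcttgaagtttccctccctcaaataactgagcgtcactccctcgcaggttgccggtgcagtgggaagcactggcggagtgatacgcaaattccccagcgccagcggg
Col4a6: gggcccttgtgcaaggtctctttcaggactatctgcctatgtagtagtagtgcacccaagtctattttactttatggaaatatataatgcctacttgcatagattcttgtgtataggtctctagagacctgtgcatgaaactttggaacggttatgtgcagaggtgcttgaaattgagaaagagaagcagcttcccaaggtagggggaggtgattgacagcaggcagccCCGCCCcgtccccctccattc
The *Col4a5* stretch has 1 CCAAT and 0 GGGCGG matches, the *Col4a6* stretch 0 and 1, and neither holds TATAAA. Their GC contents are 52.3% and 47.6%. Among all 32851 promoter windows of 250 bases in the table, 33.8% hold CCAAT, 32.7% GGGCGG and 12.4% TATAAA, and among the 68 windows of the 62 members found there these shares are 26.5%, 47.1% and 7.35%. A match describes the letters only.

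*Col18a1*, the basement membrane collagen whose tail is released as endostatin, was the most abundant collagen in ESCs, with 58.2 ± 6.44 RPKM in WT and 60.2 ± 3.25 RPKM in KO. At day 0 its groups overlapped, with 372, 459 and 395 CPM in WT and 400.1, 422 and 446 CPM in KO libraries (0.05 ± 0.11, adjusted p = 0.796). Embryoid bodies had 169, 181 and 247 CPM in WT and 355, 377 and 397 CPM in KO libraries. The KO libraries stayed near the ESC level while all WT libraries were lower, a log2 fold change of 0.93 ± 0.11 (adjusted p = 0.00033). *Col7a1*, which anchors basement membranes to the tissue below, had 7.18, 5.58 and 17.2 CPM in WT and 4.15, 3.92 and 6.37 CPM in KO at day 3. Its groups overlapped, and its call (-0.96 ± 0.23, adjusted p = 0.0125) was lost without WT day 3 replicate 3, where the value was -0.64, or without KO day 3 replicate 3, with an adjusted p of up to 0.0777. *Col15a1*, a relative of *Col18a1*, passed at neither day.

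**Figure D3:**
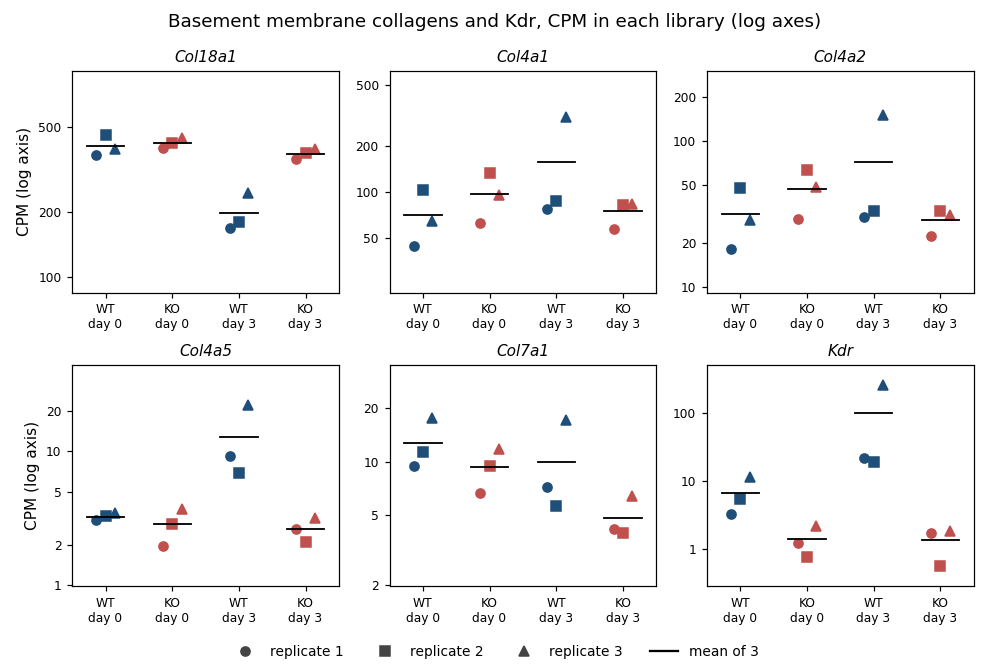
CPM (vertical axis, logarithmic) of 5 basement membrane collagens and of *Kdr*, a marker of mesoderm and endothelium, in each of the 12 libraries by group (horizontal axis), with a line at the mean of 3. WT day 3 replicate 3 is the highest WT day 3 library in each panel, at 309 CPM for *Col4a1* and 258 CPM for *Kdr*.

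Of 20 tested partners of the basement membrane and matrix, 2 were higher and 2 lower at day 0, with a median log2 fold change of 0.08. Of all genes tested, 9.56% were higher and 10.9% lower at that day. *Bcam*, a laminin alpha5 receptor, and *Hspg2*, which encodes perlecan, were higher in KO ESCs (1.55 and 0.57, adjusted p = 0.000199 and 0.0209). *Fras1* and *Frem2*, which link the epithelial basement membrane to the tissue below, were lower (-1.88 and -1.34, adjusted p = 0.0016 and 0.01). At day 3, 2 were higher and 7 lower, with a median of -0.44, when 14.3% of all genes were higher and 16.7% lower. The lower ones included *Fn1*, fibronectin, with 942, 1017 and 2791 CPM in WT and 341, 493 and 617 CPM in KO libraries (-1.61 ± 0.26, adjusted p = 0.0017). *Tnc*, tenascin-C (-3.46), *Frem1* (-2.45) and *Smoc2* (-2.10) were lower as well. *Tnc* had 0.793, 1.396 and 23.8 CPM in WT and 0.2, 0.91 and 0.749 CPM in KO libraries, which overlapped. *Frem1* had 8.1, 5.7 and 37.2 CPM in WT and 2.1, 1.8 and 3.9 CPM in KO libraries. WT day 3 replicate 3 was thus far above the other WT libraries for *Fn1*, *Tnc* and *Frem1*. *Bcam* was still higher (0.64, adjusted p = 0.0082).

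The laminin receptors were led by *Itga6*, the alpha6 chain, which had 163, 178 and 178 CPM in WT and 249, 307 and 341 CPM in KO libraries at day 0. The log2 fold change was 0.78 ± 0.09 (adjusted p = 0.000434). In embryoid bodies it had 97.8, 109 and 116 CPM in WT and 234, 231 and 233 CPM in KO libraries, 1.12 ± 0.09 (adjusted p = 4.93e-05). At both days all KO libraries were above all WT libraries, and the 3 KO libraries of day 3 were nearly level. *Itgb4*, the beta4 partner of alpha6 in hemidesmosomes, was 6.00 ± 0.264 CPM in WT and 11.1 ± 1.92 CPM in KO ESCs, 0.87 ± 0.20 (adjusted p = 0.0146), a call that ended without any 1 of 3 libraries (WT day 0 replicate 2 or 3, or KO day 0 replicate 2, adjusted p up to 0.0807). At day 3 it did not pass (-0.40, adjusted p = 0.202). *Itga3*, the alpha3 chain, had 90.5, 118 and 91.1 CPM in WT and 109, 197 and 143 CPM in KO libraries at day 0, which overlapped (0.58 ± 0.21, adjusted p = 0.0746). Within each replicate number *Itga3* was higher in KO at that day. *Itga7*, the alpha7 chain of muscle, passed at neither day.

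*Itgb1*, the beta1 chain shared by most of these receptors, was the most abundant integrin transcript, at 96.8 ± 6.24 RPKM in WT ESCs. It had 366, 403 and 415 CPM in WT and 381, 408 and 403 CPM in KO libraries at day 0, which overlapped, with a log2 fold change of 0.01 ± 0.08 (adjusted p = 0.947). Day 3 values were 459, 441 and 481 CPM in WT and 352, 318 and 309 CPM in KO libraries. Every KO library was then below every WT library, by a log2 fold change of -0.49 ± 0.08 (adjusted p = 0.0015).

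Among the receptors of RGD ligands, *Itga5*, the alpha5 chain of the fibronectin receptor, had 88.8, 102 and 95.5 CPM in WT and 206, 220.4 and 218 CPM in KO libraries at day 0. The KO libraries were tight and more than 2 times the WT libraries (1.17 ± 0.12, adjusted p = 0.000297). Its day 3 values were 47.0, 51.0 and 71.7 CPM in WT and 44.2, 53.5 and 50.7 CPM in KO libraries, which overlapped. The log2 fold change was -0.18 ± 0.12 (adjusted p = 0.262), or 0.03 without WT day 3 replicate 3. *Itga8*, the alpha8 chain, which binds nephronectin in the kidney bud, went the other way. It had 2.18, 2.04 and 3.59 CPM in WT and 1.06, 1.38 and 1.23 CPM in KO libraries at day 0 (-1.07 ± 0.26, adjusted p = 0.0155), and that call was lost without WT day 0 replicate 3, KO day 0 replicate 1 or KO day 0 replicate 3 (adjusted p up to 0.076). At day 3 it had 16.5, 18.0 and 17.2 CPM in WT and 1.1, 0.853 and 0.874 CPM in KO libraries. WT libraries had risen together while KO libraries stayed at the ESC level, a log2 fold change of -4.19 ± 0.26 (adjusted p = 1.28e-05).

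*Itgb8*, the beta8 chain that pairs with alphaV, had 2.13, 2.19 and 5.65 CPM in WT and 0.0560, 0.165 and 0.204 CPM in KO libraries at day 0, which are 39, 42 and 107 counts against 1, 3 and 4 counts. This was the largest difference of any member in ESCs (-4.43 ± 0.54, adjusted p = 0.000686). At day 3 the groups overlapped, with 7.23, 6.45 and 10.5 CPM in WT and 11.9, 5.40 and 6.99 CPM in KO (0.04 ± 0.35, adjusted p = 0.95). *Itgb5*, the beta5 chain of the vitronectin receptor, changed sides. It was 32.7 ± 5.17 CPM in WT and 52.1 ± 1.03 CPM in KO ESCs (0.68 ± 0.14, adjusted p = 0.0087), and 62.5 ± 1.73 CPM in WT and 44.0 ± 11.3 CPM in KO at day 3 (-0.53 ± 0.14, adjusted p = 0.019). The day 3 call was lost without WT day 3 replicate 2, KO day 3 replicate 2 or KO day 3 replicate 3 (adjusted p up to 0.0881).

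*Itgav*, the alphaV chain, did not pass in ESCs (0.07 ± 0.11, adjusted p = 0.674). It was lower in KO at day 3, with 49.3, 49.4 and 52.9 CPM in WT and 42.1, 42.6 and 36.5 CPM in KO libraries (-0.32 ± 0.10, adjusted p = 0.0401), a call that any 1 of 6 left-out libraries ended (WT day 0 replicate 2, WT day 3 replicate 1 or 3, KO day 0 replicate 3, KO day 3 replicate 2 or 3, adjusted p up to 0.245). *Itga2b*, the platelet alphaIIb chain, had 1.73, 1.73 and 17.0 CPM in WT and 0.550, 0.398 and 0.708 CPM in KO libraries at day 3. Its log2 fold change of -3.23 ± 0.77 (adjusted p = 0.0111) was -1.59 without WT day 3 replicate 3 and -3.83 without WT day 3 replicate 1, and the call was lost without KO day 3 replicate 3 (adjusted p = 0.0779). *Itgb3*, its beta3 partner, passed at neither day.

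*Itga1*, the alpha1 chain that binds type IV collagen, was lower in KO at both days. At day 0 it had 1.69, 4.38 and 6.61 CPM in WT and 0.785, 1.43 and 1.07 CPM in KO libraries (-1.90 ± 0.49, adjusted p = 0.0217), a call lost without WT day 0 replicate 2 or 3 or KO day 0 replicate 1 or 3 (adjusted p up to 0.11). At day 3 it had 12.5, 10.9 and 7.91 CPM in WT and 1.45, 0.682 and 1.37 CPM in KO libraries (-3.17 ± 0.48, adjusted p = 0.0011), with no overlap. Its neighbour *Itga2*, 20996 bases away and also a collagen receptor, had at most 8 counts in any library and was not tested. *Itga10* and *Itga11*, the other collagen-binding chains, passed at neither day.

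The bases before the starts of *Itga5* and *Itga1* are shown as those of a receptor that was higher and one that was lower in KO ESCs, from the same table and with the same marks. *Itga5* is at chr15:103366792-103367041 and *Itga1* at chr13:115101965-115102214, both on the minus strand.
Itga5: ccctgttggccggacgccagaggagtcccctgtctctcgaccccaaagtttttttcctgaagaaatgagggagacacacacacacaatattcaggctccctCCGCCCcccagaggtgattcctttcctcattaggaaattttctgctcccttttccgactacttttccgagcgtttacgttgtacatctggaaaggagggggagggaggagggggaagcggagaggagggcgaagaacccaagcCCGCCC
Itga1: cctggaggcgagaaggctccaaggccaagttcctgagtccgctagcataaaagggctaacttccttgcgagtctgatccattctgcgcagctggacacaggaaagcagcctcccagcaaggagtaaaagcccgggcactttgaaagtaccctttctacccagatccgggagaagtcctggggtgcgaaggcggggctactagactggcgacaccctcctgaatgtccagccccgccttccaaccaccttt
The *Itga5* window holds 2 matches to GGGCGG and 0 to CCAAT or TATAAA, and the *Itga1* window holds 0 of the 3 motifs. Their GC contents are 55.6% and 57.6%, with 11 and 10 CpG dinucleotides.

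*Itga9*, the alpha9 chain that binds tenascin-C, starts 120.6 kb from the end of *Eomes* on chromosome 9. At day 0 it had 16.3, 24.5 and 21.8 CPM in WT and 27.96, 42.9 and 50.5 CPM in KO libraries, with all KO above all WT libraries (0.93 ± 0.28, adjusted p = 0.0432). That call was lost without any 1 of 7 libraries (each of the 6 of day 0, or KO day 3 replicate 2, adjusted p up to 0.179) and in the fit without the replicate block. At day 3 the order was turned, with 10.8, 10.2 and 27.7 CPM in WT and 5.35, 6.14 and 4.995 CPM in KO libraries (-1.46 ± 0.30, adjusted p = 0.0057). WT day 3 replicate 3 was again the highest, and without it the log2 fold change was -0.98, which still passed (adjusted p = 0.0131). *Itga4*, the alpha4 chain that binds fibronectin and VCAM1, passed at neither day.

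Of the leukocyte integrins, *Itgb7*, the beta7 chain of lymphocytes, was at 25.1 ± 2.51 CPM in WT and 36.7 ± 2.55 CPM in KO ESCs (0.55 ± 0.15, adjusted p = 0.0284). The call was lost without any 1 of 5 day 0 libraries, WT replicate 1 being the exception (adjusted p up to 0.139). *Itgb2*, the beta2 chain of leukocytes, was called lower at day 3 on 4, 4 and 22 counts in WT and 1, 1 and 1 counts in KO libraries. As summed counts this is a WT level 9.75 times the KO level, with a 95% interval from counting error of 3.03 to 49.9. Without KO day 3 replicate 3 the call was lost (adjusted p = 0.129), and without WT day 3 replicate 3 the gene was below the filter. *Itgae*, *Itgal* and *Itgam* passed at neither day. *Itgb1bp1*, *Itgb1bp2* and *Itgb3bp*, which are named after integrins but encode no chain, passed at neither day.

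**Figure D4:**
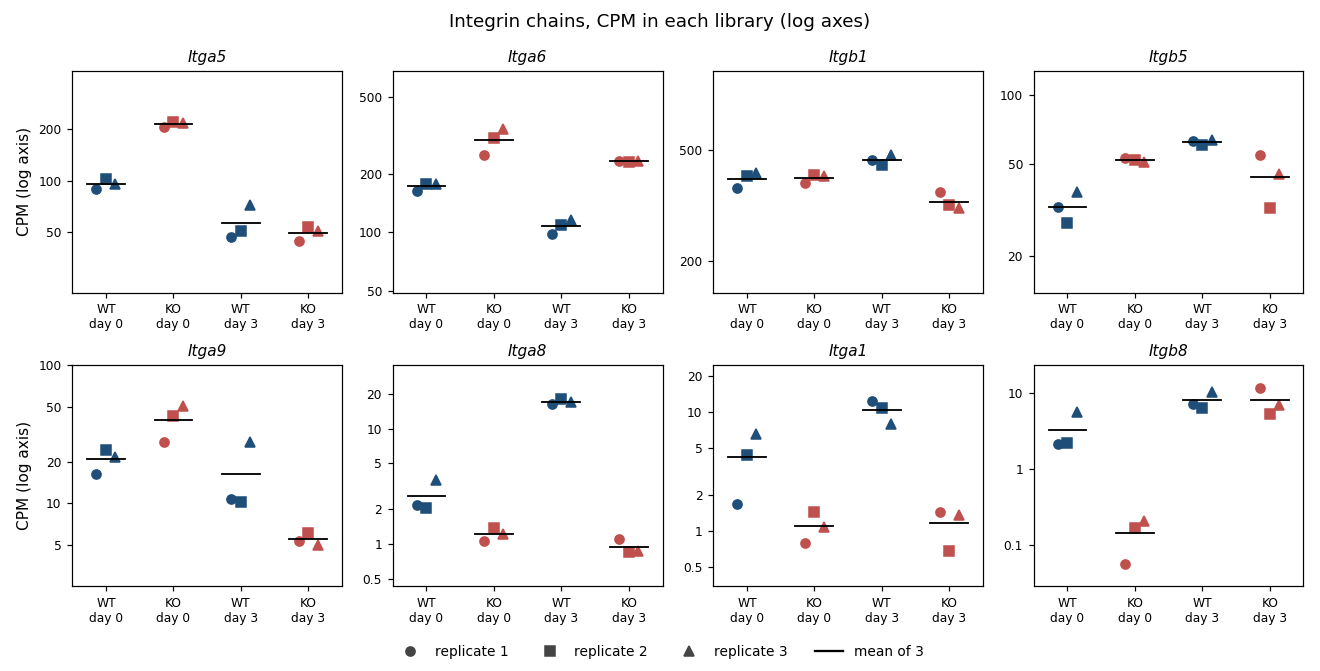
CPM (vertical axis, logarithmic) of 8 integrin chains in each of the 12 libraries by group (horizontal axis), with a line at the mean of 3. *Itga5* and *Itga6* lie above in KO ESCs, *Itga8* and *Itga1* lie below in KO at both days, and *Itgb8* lies below in KO at day 0.

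Of 20 tested partners of integrins inside the cell and in its membrane, 7 were higher and 4 lower at day 0, with a median of 0.14. Of all genes tested, 9.56% were higher and 10.9% lower then. *Lims2*, a LIM adaptor of the kinase ILK, had 0.655, 0.626 and 0.634 CPM in WT and 3.81, 6.72 and 4.95 CPM in KO libraries (2.96 ± 0.38, adjusted p = 0.000848), and *Cd9*, a tetraspanin of ESCs, was also higher (0.87, adjusted p = 0.001). *Fermt1*, kindlin-1, was lower (-1.85, adjusted p = 0.0041). At day 3, 4 were higher and 4 lower, with a median of 0.01, when 14.3% of all genes were higher and 16.7% lower. *Zyx*, zyxin of focal adhesions, was lower (-1.17, adjusted p = 0.0114), as was *Vcl*, vinculin (-0.55, adjusted p = 0.0098), while *Cd9* was again higher (0.73, adjusted p = 0.0018).

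The fibrillar collagens of fibroblasts were treated apart, because feeders can add their RNA at day 0. Summed over *Col1a1*, *Col1a2*, *Col3a1*, *Col5a1* and *Col5a2*, WT ESC libraries had 97.3, 331 and 192 CPM and KO ESC libraries 144, 415 and 276 CPM. The replicates took the same order in both genotypes, and within each replicate number the sum was higher in KO. The spread between libraries of one genotype was wide, and the genotypes overlapped. *Col1a1*, the alpha1 chain of type I collagen, had 30.1, 118 and 56.7 CPM in WT and 40.7, 149 and 77.4 CPM in KO libraries (0.40 ± 0.34, adjusted p = 0.453). It too was higher in KO within each replicate number. None of the other chains passed at day 0: *Col1a2* was at 0.68 ± 0.33, *Col3a1* at 0.92 ± 0.40, *Col5a1* at 0.21 ± 0.25 and *Col5a2* at 0.40 ± 0.39 on the log2 scale (adjusted p = 0.184, 0.133, 0.596 and 0.514). With the replicate block set within each day, *Col1a2* passed (adjusted p = 0.00649).

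Part of the fibroblast markers were uneven between the same libraries. Replicate 2 was highest and replicate 1 lowest in both genotypes for 4 of these 5 collagens, 16 of 76 members and 5.24% of all genes tested, an order noticed in the data. Of the 13 fibroblast markers tested, 7 had that order and 6 did not. *Acta2*, smooth muscle actin, had it, with 19.9, 94.3 and 64.2 CPM in WT and 18.9, 81.4 and 45.0 CPM in KO ESC libraries. *Mmp2*, a matrix protease, did not, with 32.0, 24.8 and 29.2 CPM in WT and 25.5, 27.2 and 21.5 CPM in KO. Summed over 16 fibroblast and feeder markers, the libraries ranged from 215 to 432 CPM in WT and from 190.4 to 434 CPM in KO at day 0. Of the 13 tested, 0 were higher and 1 was lower in KO at day 0 with edgeR, *Cnn1*, calponin (-1.99, adjusted p = 0.0026). The shares of all genes were 9.56% higher and 10.9% lower. *Lum*, *Fap* and *Tcf21* were at most 0.386 CPM. Their part in the levels of the fibrillar collagens was not tested.

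At day 3 the 5 chains summed to 54.2, 48.8 and 95.2 CPM in WT and to 33.4, 65.2 and 74.7 CPM in KO libraries. *Col5a1* was lower in KO, with 16.3, 17.7 and 31.5 CPM in WT and 7.70, 9.27 and 10.1 CPM in KO (-1.25 ± 0.26, adjusted p = 0.0061). *Col3a1* was higher, with 7.65, 5.29 and 5.95 CPM in WT and 7.85, 24.3 and 26.9 CPM in KO (1.47 ± 0.42, adjusted p = 0.0238), although KO replicate 1 was close to WT and the call was lost without WT day 3 replicate 2 or 3, or KO day 3 replicate 2 or 3 (adjusted p up to 0.109). *Col1a1*, *Col1a2* and *Col5a2* did not pass (-0.31, -0.46 and -0.57, adjusted p = 0.566, 0.356 and 0.315). Of the 13 fibroblast markers tested, 2 were higher and 5 lower in KO at day 3, when 14.3% of all genes were higher and 16.7% lower. *Dcn*, decorin, was the most raised of them (2.51, adjusted p = 0.0022) and *Twist2* and *Prrx1* the most lowered (-2.50 and -2.43).

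**Figure D5:**
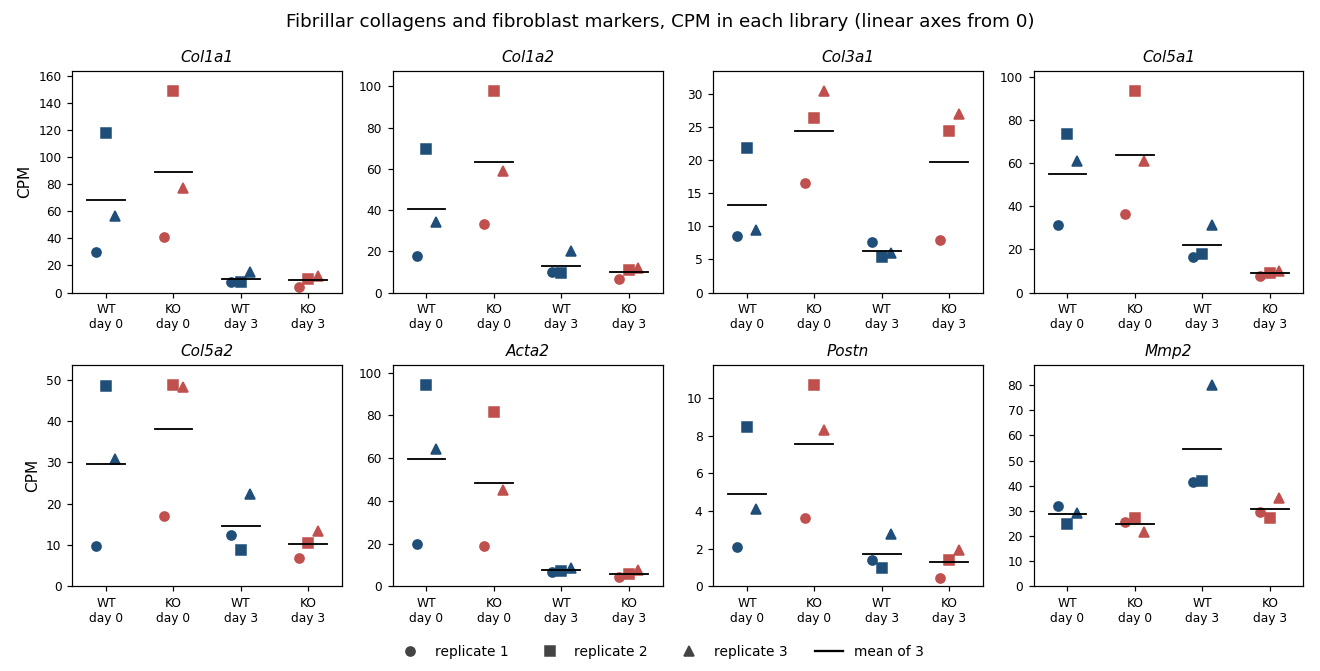
CPM (vertical axis, linear from 0) of 5 fibrillar collagens and of 3 fibroblast markers in each of the 12 libraries by group (horizontal axis), with a line at the mean of 3. At day 0 replicate 1 is the lowest library of its genotype for the 5 collagens, *Acta2* and *Postn* but not for *Mmp2*, with *Col1a1* at 30.1 CPM in WT and 40.7 CPM in KO.

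The other fibrillar chains had their own patterns. *Col5a3*, the third chain of type V collagen, had 8.63, 8.98 and 5.55 CPM in WT and 23.1, 26.3 and 24.7 CPM in KO ESC libraries. It did not share the order of the feeder-type chains, and its 3 KO libraries were close together (1.68 ± 0.19, adjusted p = 0.000516). It was also higher in KO at day 3, at 0.919 ± 0.113 CPM in WT and 1.71 ± 0.237 CPM in KO (0.90 ± 0.24, adjusted p = 0.0188), a call lost without WT day 3 replicate 1 or 2 or KO day 3 replicate 3 (adjusted p up to 0.0776). *Col11a1*, a cartilage chain, had 6.11, 3.42 and 6.57 CPM in WT and 1.3, 1.31 and 1.37 CPM in KO at day 3 (-2.03 ± 0.37, adjusted p = 0.003). *Col24a1* and *Col27a1* were lower too (-1.32 and -1.21, adjusted p = 0.0105 and 0.0104), the first losing its call without KO day 3 replicate 2 and the second without KO day 3 replicate 3 (adjusted p = 0.0578 and 0.0627). *Col2a1* and *Col11a2* passed at neither day.

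Type VI collagen forms beaded filaments around cells. In ESCs *Col6a5* was lower in KO, with 9.17, 12.1 and 6.76 CPM in WT and 5.72, 3.91 and 2.09 CPM in KO libraries (-1.30 ± 0.26, adjusted p = 0.0075). Its neighbour *Col6a6*, 27918 bases away on chromosome 9, was higher, with 1.04, 0.835 and 0.423 CPM in WT and 3.36, 1.60 and 1.84 CPM in KO (1.54 ± 0.43, adjusted p = 0.0299), a call lost without any 1 day 0 library but WT replicate 2 (adjusted p up to 0.133). *Col6a1* had 3.99, 10.6 and 5.65 CPM in WT and 6.56, 18.6 and 10.8 CPM in KO ESC libraries (0.81 ± 0.42, adjusted p = 0.207). It had the replicate order of the feeder-type chains and was higher in KO within each replicate number. *Col6a2* was at 0.22 (adjusted p = 0.7). At day 3 both were called lower. *Col6a1* had 3.54, 2.50 and 4.67 CPM in WT and 0.350, 1.82 and 2.21 CPM in KO (-1.48 ± 0.48, adjusted p = 0.0401) and *Col6a2* 6.996, 5.54 and 6.10 CPM in WT and 2.35, 2.90 and 3.58 CPM in KO (-1.09 ± 0.35, adjusted p = 0.0389). Leaving out any 1 library but WT day 0 replicate 3, WT day 3 replicate 2 or KO day 3 replicate 3 ended the first call (adjusted p up to 0.133). The second was lost without WT day 0 replicate 2 or 3, WT day 3 replicate 1 or 3, or KO day 3 replicate 1 or 2 (adjusted p up to 0.144). *Col6a3* and *Col6a4* passed at neither day.

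The fibril-associated collagens, which sit on the surface of fibrils, had 0 calls of 9 tested at day 0 with edgeR, when 20.4% of all genes passed. At day 3, 5 of the 9 were lower, when 16.7% of all genes were, with a median log2 fold change of -1.71. With the replicate block set within each day, 2 passed at day 0, 1 higher (*Col12a1*) and 1 lower (*Col9a3*). *Col16a1* had 3.36, 3.18 and 2.19 CPM in WT and 0.500, 1.14 and 1.12 CPM in KO (-1.71 ± 0.35, adjusted p = 0.005). *Col22a1*, of muscle-tendon junctions, had 4.06, 3.90 and 4.62 CPM in WT and 1.75, 0.910 and 0.957 CPM in KO (-1.88 ± 0.32, adjusted p = 0.0023). *Col19a1* was called on 14, 20 and 12 counts in WT and 1, 0 and 1 counts in KO libraries (adjusted p = 0.0022), a summed WT level 22.4 times the KO level with a 95% counting interval of 5.86 to 191. Its neighbour *Col9a1*, 9206 bases away on chromosome 1, had 1.77, 0.963 and 4.29 CPM in WT and 0.05, 0.284 and 0.0830 CPM in KO (-4.00 ± 0.84, adjusted p = 0.0059), and lay between -5.13 and -2.91 without WT day 3 replicate 2 or 3 or KO day 3 replicate 2. *Col14a1* was high in WT day 3 replicate 3 alone, with 2.56, 3.08 and 18.7 CPM in WT and 0.700, 1.88 and 2.29 CPM in KO (-1.97 ± 0.41, adjusted p = 0.0061), and had -1.26 without that library. It lost its call without KO day 3 replicate 3 (adjusted p = 0.0541). *Col9a2*, *Col9a3*, *Col12a1* and *Col20a1* passed at neither day.

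The transmembrane collagens are single-pass proteins of the cell surface. *Col13a1*, found at muscle synapses and cell contacts, was higher in KO ESCs and lower in KO embryoid bodies. It had 5.35, 4.54 and 1.58 CPM in WT and 12.7, 11.6 and 7.20 CPM in KO at day 0 (1.47 ± 0.46, adjusted p = 0.0462), a call that leaving out any 1 day 0 or KO day 3 library ended (adjusted p up to 0.165). At day 3 it had 5.50, 4.57 and 11.4 CPM in WT and 0.700, 0.682 and 0.541 CPM in KO (-3.52 ± 0.54, adjusted p = 0.0013), and -2.62 without WT day 3 replicate 3. *Col23a1* had 5.08, 5.78 and 35.4 CPM in WT and 0.95, 0.682 and 0.666 CPM in KO at day 3 (-3.95 ± 0.62, adjusted p = 0.0014), and lay between -4.62 and -2.96 without WT day 3 replicate 1 or 3 or KO day 3 replicate 3. *Col25a1*, of motor neuron development, was at 1.15 ± 0.426 CPM in WT and 0.132 ± 0.0358 CPM in KO (-3.06 ± 0.56, adjusted p = 0.003). *Col17a1*, of hemidesmosomes, passed at neither day.

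Among the remaining collagens, *Col8a1*, a network collagen of vessels and of the cornea, was the member most raised in KO embryoid bodies, with 0.280, 0.241 and 0.572 CPM in WT and 0.850, 2.39 and 2.41 CPM in KO (2.28 ± 0.46, adjusted p = 0.005). Without WT day 3 replicate 2 the value was 1.69. Its partner *Col8a2* was lower, at 1.298 ± 0.155 CPM in WT and 0.658 ± 0.0799 CPM in KO (-0.97 ± 0.31, adjusted p = 0.0366), and lost its call without any 1 of the 6 day 3 libraries (adjusted p up to 0.111). *Col26a1* had 2.52, 2.696 and 6.43 CPM in WT and 0.650, 0.512 and 1.12 CPM in KO (-2.35 ± 0.65, adjusted p = 0.0208), or -1.44 without WT day 3 replicate 3 (adjusted p = 0.125), and its call was also lost without KO day 3 replicate 1 or 2. *Col10a1* passed at neither day in the comparison of genotypes.

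Collagen chains need a set of enzymes and chaperones to fold and to be cross-linked, of which 27 were tested. At day 0, 4 were higher and 2 lower, with a median of 0.22, when 9.56% of all genes were higher and 10.9% lower. *Pcolce*, which enhances procollagen cleavage, and *Crtap*, of the prolyl 3-hydroxylase complex, were higher (1.12 and 0.87, adjusted p = 0.000311 and 0.000442). *P4hb*, the beta subunit of prolyl 4-hydroxylase, was lower (-0.48, adjusted p = 0.0052). At day 3, 4 were higher and 8 lower, with a median of -0.55, when 14.3% of all genes were higher and 16.7% lower. *Serpinh1*, the collagen chaperone HSP47, had 172, 130.5 and 252 CPM in WT and 66.0, 45.2 and 45.8 CPM in KO libraries (-1.81 ± 0.26, adjusted p = 0.000899). All KO libraries were below all WT libraries. *P3h2*, a prolyl 3-hydroxylase, and *Adamts3*, a procollagen peptidase, were also lower (-2.39 and -1.30, adjusted p = 0.000893 and 0.0248). Among the lysyl oxidases, *Loxl1* was higher (1.76, adjusted p = 0.0024) and *Loxl4* lower (-2.81, adjusted p = 0.0049), while the groups overlapped for *Lox*, *Loxl2* and *Loxl3*.

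From day 0 to day 3, 19 members rose and 28 fell in WT, 61.8% of those tested against 56.2% of all genes (30.7% of all genes rose and 25.5% fell), with a median log2 fold change of -0.44 against 0.07. In KO 7 rose and 41 fell, 63.2% against 56.6% of all genes (29.4% rose and 27.2% fell), with a median of -1.40 against 0.03. Feeders were part of the day 0 culture, and the sources used here do not say whether they were removed before the drops were set, so the part of feeder RNA in these differences was not tested. By fitted value, the largest rises in WT were those of *Col4a6* (4.06 ± 0.50), *Col23a1* (3.57 ± 0.60, or 2.50 without WT day 3 replicate 3 and 4.23 without replicate 1), *Col19a1* (3.24 ± 0.65), *Itga8* (2.74 ± 0.24) and *Col14a1* (2.64 ± 0.43, or 1.91 without that library). The 5 largest falls by fitted value were those of *Col10a1*, *Col12a1* (-4.40 ± 0.38), *Col6a3* (-3.97 ± 0.56), *Itgb7* (-3.65 ± 0.18) and *Col8a1* (-3.19 ± 0.45, or -2.57 without WT day 3 replicate 2). *Col10a1* had 3, 9 and 9 counts in WT at day 0 and 0 in all 3 at day 3, at least 7.84-fold lower against a floor of 3 counts over the group, a bound that does not settle its place among the falls, and with *Col10a1* at this bound the median of the members was again -0.44.

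In KO the largest rises by fitted value were those of *Itgb8* (5.80 ± 0.53), *Col9a3* (2.84 ± 0.51), *Itga4* (2.35 ± 0.40), *Col24a1* (2.24 ± 0.41) and *Col4a6* (1.91 ± 0.67), of which the last lost its call without KO replicate 1 or 2 of either day (adjusted p up to 0.122) and lay between 2.55 and 2.99 without KO replicate 3 of either day. *Col9a3* was at 3.49 without KO day 0 replicate 1. The largest falls by fitted value were those of *Col10a1*, *Itga11* (-4.98 ± 0.37), *Col12a1* (-4.84 ± 0.37), *Col6a3* (-4.52 ± 0.54, or -3.87 without KO day 3 replicate 2) and *Itgb3* (-4.06 ± 0.62). *Col10a1* went from 3, 19 and 30 to 0, 1 and 0 counts, a summed level 57.7 times higher at day 0 with a 95% counting interval of 9.9 to 2321. *Col12a1* and *Col6a3*, both made by fibroblasts, fell in both genotypes, from 4.42, 35.4 and 22.3 to 0.700, 0.915 and 0.810 CPM in WT for *Col12a1*. *Lamb1* was the laminin chain that rose in KO (0.51 ± 0.10, adjusted p = 0.0015), while *Lama1* and *Lamc1* fell in both genotypes, with log2 fold changes of -2.18 and -1.34 in WT and -3.92 and -2.17 in KO.

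The difference between the KO effect at day 3 and that at day 0 passed for 21 members, 3 in the positive and 18 in the negative direction, 27.6% of those tested against 15.5% of all genes (8.21% positive and 7.34% negative). The median of this difference was -0.79 for the members and 0.00 for all genes. The positive ones were *Itgb8* (4.47 ± 0.66), *Col18a1* (0.88 ± 0.15) and *Lamb1* (0.56 ± 0.14), of which *Lamb1* was lost without any 1 of 5 libraries (adjusted p up to 0.0636). Negative ones that held under every alternative fit, filter and left-out library were *Col13a1* (-5.00 ± 0.71, or -4.16 without WT day 3 replicate 3), *Itga8* (-3.11 ± 0.36), *Itga9* (-2.39 ± 0.42), *Col16a1* (-2.14 ± 0.46), *Itga5* (-1.36 ± 0.17), *Itgb5* (-1.21 ± 0.20), *Lamb2* (-0.99 ± 0.21) and *Lamc1* (-0.82 ± 0.13). The count was 13 without WT day 0 replicate 3 or KO day 0 replicate 2, when 10.5% and 8.91% of all genes passed, and 12 without KO day 3 replicate 3, when 9.63% did. For *Lamc1* the KO effect was of 1 sign at both days and smaller at day 3, while for *Itgb5*, *Itga9* and *Col13a1* it was positive at day 0 and negative at day 3. With the replicate block set within each day, 37 members passed, 4 positive and 33 negative, when 31.2% of all genes did.

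The 10 members below the filter were the basement membrane collagens *Col4a3* and *Col4a4*, *Col28a1*, the laminin chain *Lamc3*, the integrin chains *Itgb6*, *Itga2*, *Itgad*, *Itgax* and *Itgb2l*, and *Itgbl1*. None had more than 16 counts in any library, and *Itgb2l* had 0 in all 12. No test is given for these genes.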

How the data were processed

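RNA sequencing of 12 libraries (WT and *Meteor* KO, day 0 and day 3, 3 each) was analysed from the read counts per gene that the authors deposited, 1 file per library, with Ensembl identifiers. The submitters' processing notes name cutadapt 1.3, STAR 2.4.2a and HTSeq 0.6.1 with GRCm38. Library kit and sequencer differ between the labels and the study's methods, and whether the counting used strand is not given in the sources used here, so reads of overlapping genes, such as *Col4a1* and *Col4a2*, may not be told apart. Besides genes, each file has 5 summary rows, which were left out (reads not mapped uniquely, 36.5% to 44.1% of all counted, no feature, 6.14% to 9.32%, and ambiguous, 0.7% to 0.75%, among them).

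Genes above 1 CPM in at least 1 library were fitted in edgeR 4.0.16 (R 4.3.3) with TMM scaling, all 12 libraries and the replicate number as a block over both days. The study's model also had a batch factor, but the sources used here do not say what the batch was. P-values were adjusted by Benjamini-Hochberg over all genes tested. RPKM are TMM-scaled CPM per kilobase of GENCODE M21 exon length. WT and KO libraries with the same number and day deviated together from their group means (r = 0.341 to 0.721 across 10901 genes, 6 pairs). Those of other numbers had a mean r of -0.268 (-0.6 to 0.198, 12 pairs). The deviations of a gene in a group sum to 0, so a positive r of equal numbers by itself makes that mean negative. The pairing is thus read from the r of equal numbers, within a day. Across days the mean r was -0.056. The labels do not say what a number shares. Alternatives were no block, a block within each day, limma-voom (limma 3.58.1), DESeq2 1.42.0, its size factors, other filters, fewer samples and each library left out. The fits were tested on simulated data, in which the effect of a replicate number was shared over both days. That test cannot show whether such a block suits these data. Promoters were from RefSeq on GRCm38.p6 (62 of 86 members found). Counting intervals and floors cover counting error only.

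The members and gene lists were chosen with earlier results of these data known. For KO against WT, members with an adjusted p below 0.05 were named, by size up to 30, with *Col4a1*, *Col4a2*, *Lama1*, *Lama5*, *Lamb1*, *Lamc1*, *Itga6*, *Itgb1*, *Itga5*, *Itgav*, *Col1a1*, *Col1a2*, *Col3a1*, *Col5a1*, *Col5a2*, *Col6a1*, *Col6a2* and *Itga9* in any case. Day 3 calls past this limit (*Col18a1*, *Col5a3*, *Lamb2* and *Itgb5*), and members mentioned without a call, were named after their values were seen. The values of 1 member are not reported here, though counts of members include it. Between days the 5 largest rises and falls per genotype were named, and from other lists up to 4 called genes per direction.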

Additional observations from a re-analysis of the deposited data

Results flagged for a closer look

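The KO effect differed between day 3 and day 0 in 21 members, of which 20 are given, by the interaction term of edgeR's quasi-likelihood fit (adjusted p below 0.05, n = 3 per group). Each value is the log2 fold change of KO against WT at day 3 minus that at day 0. Among the laminin chains it was 0.56 for *Lamb1*, -0.99 for *Lamb2*, -0.82 for *Lamc1* and -3.73 for *Lama2*. *Lamc1* was higher in KO at both days. The *Lama2* term was lost without any 1 of 9 libraries (adjusted p up to 0.138), and lay between -4.47 and -2.37 without WT day 0 replicate 2, WT day 3 replicate 2 or 3, or KO day 3 replicate 3. The *Lamb1* term was lost without any 1 of 5 libraries (adjusted p up to 0.0636).

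Among the integrin chains the value was 4.47 for *Itgb8*, -3.11 for *Itga8*, -2.39 for *Itga9*, -2.0 for *Itga11*, -1.36 for *Itga5*, -1.27 for *Itgb4*, -1.21 for *Itgb5* and -0.50 for *Itgb1*. *Itga8* was lower in KO at both days, by more at day 3. *Itgb8* was lower in KO in ESCs and overlapped at day 3. *Itga11* passed at neither day by itself, and its term was lost without any 1 of 6 libraries (adjusted p up to 0.0996). The term of *Itgb4* was lost without any 1 of 5 (adjusted p up to 0.0684) and that of *Itgb1* without KO day 3 replicate 3 (adjusted p = 0.057).

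Among the collagens it was 0.88 for *Col18a1*, -1.92 for *Col4a5*, -1.89 for *Col11a1*, -1.46 for *Col5a1*, -2.29 for *Col6a1*, -2.14 for *Col16a1*, -5.00 for *Col13a1* and -3.20 for *Col26a1*. *Col13a1* was -4.16 without WT day 3 replicate 3. *Col26a1* lay between -3.80 and -2.24 without WT day 0 replicate 1 or WT day 3 replicate 3, and was lost without any 1 of 8 libraries (adjusted p up to 0.0984). *Col6a1* was lost without any 1 of 9 libraries (adjusted p up to 0.13), *Col11a1* without any 1 of 7 (up to 0.103), *Col5a1* without any 1 of 5 (up to 0.0725) and *Col4a5* without KO day 0 replicate 2 or KO day 3 replicate 3 (up to 0.0613).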

How the results depend on the processing

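With 18 members called at day 0, 38 at day 3, 47 and 48 between the days in WT and KO, and 21 for the difference, the fit with no replicate block called 17, 35, 44, 47 and 18. The shares of all genes called with no block were 16.8%, 26.4%, 52.7%, 53.0% and 12.8%. A replicate block within each day, which follows the pairing seen in the data, called 28 at day 0, 46 at day 3 and 37 for the difference. The shares of all genes called by it were 34.8%, 46.9% and 31.2%. With the samples of the compared groups alone, 39 were called at day 0 (36.7% of all genes then). Over left-out libraries the counts were 10 to 24 at day 0, 25 to 39 at day 3, 40 to 47 and 46 to 52 between the days, and 12 to 30 for the difference, while the share of all genes called was 11.0% to 22.6% at day 0, 18.6% to 32.5% at day 3 and 8.91% to 15.4% for the difference. The lowest were without WT day 0 replicate 3 at day 0 and without KO day 3 replicate 3 at day 3 and for the difference, which was 13 without WT day 0 replicate 3 or KO day 0 replicate 2. The cause was not tested.

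Among the named members, no call turned its sign. Without a call, *Itgb1* at day 0 was -1.6e-05 with at least 10 counts in every sample, -0.00034 with no filter, -0.05 without WT day 0 replicate 1 and -0.02 without KO day 0 replicate 2 (-0.05 to 0.04 over left-out libraries). Without KO day 0 replicate 2, other day 0 values turned too (*Itgav* -0.01, range to 0.14, *Col5a1* -0.10, range to 0.39, and *Col6a2* -0.34, range to 0.48). At day 3 *Lama1* was 0.69 without WT day 3 replicate 3 and 0.01 without KO day 3 replicate 3 (range from -0.49), and without WT day 3 replicate 3 *Itga5* was 0.03 (range from -0.29) and *Col1a1* 0.0036 (range from -0.76). Low counts limit *Itgb2*, *Col19a1*, *Col10a1* and *Col4a6*, and 10 members had too few reads to pass the filter.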
